A study of Mus musculus with 6 samples.

Results

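The genes described here encode the proteins of the cytosolic ribosome and paralogs of these genes, some of which, such as Rpl10l and Rpl39l, are known from testis. Members were chosen by name: every probe outside the control spots whose listed gene is an Rpl or Rps gene (a number with at most 1 letter and 1 digit after it), Rplp0, Rplp1, Rplp2 or Rpsa, with the Rps6k kinases left out. The rule gave 83 genes among 34844 gene or locus names on the array, covered by 186 probes. Each gene is represented by its brightest probe over the 6 arrays, and all 83 were among the 28925 names tested. Messenger RNA was measured in whole testes of male C57BL/6 mice aged 5 months, 1 testis per one-colour Agilent array labelled with Cy3. AROM+ mice (n = 3) over-express aromatase, which converts androgens to oestrogens, from a transgene, and wild-type (WT) mice (n = 3) served as controls. The promoter and the cell types that drive the transgene are not given in the sources used here. The labels do not say whether the 3 testes of a group came from 3 animals, so p-values measure the spread between these testes.

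Ribosomal proteins surround the ribosomal RNAs of the large and small subunit and are made in every growing cell, in matched amounts. The genes Rpl10, Rpl36a, Rpl39 and Rps4x, lie on the X chromosome, which is silenced in male germ cells during meiosis. Intronless or duplicated autosomal copies such as Rpl10l and Rpl39l are expressed in those cells, and Rpl10l is needed for male meiosis. Rpl39 and Rpl39l proteins line the tunnel through which the growing chain leaves the ribosome.

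Between 76.6% and 80.6% of spots were well above background on each array, and the intensity below which 75% of probes fell ranged from 3698 to 5452. Across genes, which are not independent replicates, arrays correlated at r = 0.994 to 0.996 within WT, 0.988 to 0.992 within AROM+ and 0.961 to 0.983 between the groups. All 6 arrays lay on 1 slide, WT in one row and AROM+ in the other, so position and group cannot be told apart. The mouse aromatase gene Cyp19a1 differed by −0.30 ± 0.185 (limma SE, adjusted p = 0.220), but its probe is not known to read the transgene and so does not check the labels. All markers listed for spermatocytes (10), round spermatids (9), elongating spermatids (10) and Sertoli cells (11) had a probe above background. Values below are log2 intensities with the array's own 75th percentile set to 0, and differences are AROM+ minus WT on that log2 scale with limma's standard error. A gene was called when limma's Benjamini-Hochberg adjusted p over all 28925 names was under 0.05.

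The results turn on the X-linked genes and their autosomal copies, so the probes that measured them are shown first, as the scanner files give them, with positions on mm9. Capitals mark bases that a probe with another gene name shares in a run of at least 20. Rpl10 is read by a probe at chrX:71518307-71518366 and by its brightest probe at chrX:71518408-71518465, of which the first 30 bases are shown. Another Rpl10 probe, at chrX:71518414-71518473, overlaps the brightest and is not shown. The Rpl10l probe shown lies at chr12:67384868-67384927.
Rpl10: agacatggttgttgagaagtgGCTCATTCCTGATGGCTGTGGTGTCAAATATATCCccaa
Rpl10 brightest probe, first 30 bases: ggcttcaatagtTCTCCTATACCCTACCAA
Rpl10l: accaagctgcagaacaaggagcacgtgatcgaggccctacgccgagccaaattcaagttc
The Rpl39 probe spans chrX:34622696-34623990 across an exon junction, and that of Rpl39l lies at chr16:10174657-10174716.
Rpl39: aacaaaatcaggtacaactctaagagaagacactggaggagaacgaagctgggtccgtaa
Rpl39l, first 30 bases: ctgtgctttagtgagttcattcagcagttc
The files place the Rps4x probe at chr3:112105991-112106050, away from the gene on X, and its other probe on chromosome 5. The probe of Rps4y2, an older name of Rps4l on chromosome 6 with a non-coding RefSeq record, lies at chr6:148304043-148304102.
Rps4x: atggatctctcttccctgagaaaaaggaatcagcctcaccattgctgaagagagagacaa
Rps4y2, first 30 bases: ggggaaggggcgtttacgtttgtttatact
The brightest Rpl36a probe lies at chrX:131122046-131122105.
Rpl36a: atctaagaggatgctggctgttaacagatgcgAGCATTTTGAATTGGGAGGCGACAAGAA
The Rpl10l, Rpl39, Rpl39l, Rps4x and Rps4y2 probes share no run of that length with a probe of another name. Over all members, 81 of 184 kept probes, from 47 genes, do share one, so the signal of such a probe can include RNA of near-identical copies.

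At the brightest probes, with the array's 75th percentile set to 0, few ribosomal protein genes were called in AROM+ testes. Those called higher in this setting were X-linked. Of the 83 genes, 3 rose (Rpl39, Rps4x and Rpl10), 5 fell (Rpl10l, Rpl29, Rpl39l, Rpl22l1 and Rps24) and 75 did not pass the test. Over all names tested, 14.5% were called higher, 31.4% lower and 45.9% in either direction, beside 3.61%, 6.02% and 9.64% of the members; the difference in shares was not tested. Their median difference was −0.11 (interquartile range −0.15 to −0.02, extremes −0.54 and 0.64), beside −0.19 (−0.43 to 0.15) over all names. The 3 AROM+ values lay wholly above the WT values for 4 members and wholly below for 23, against 17.9% and 41.1% of all names. The direction of the members' median depends on the scaling: with quantile normalization it was 0.11. In that setting 13 genes were called higher, among them the autosomal Rpl3, Rpl5 and Rpl10a, and 1 lower. Over all names, quantile normalization gave 16.2% higher and 21.4% lower. The count of falls also depends on single testes: without WT replicate 1, 2 or 3 it was 1, 2 and 2, and without AROM+ replicate 1, 2 or 3 it was 1, 1 and 3. The share of all names called lower was smaller in each of these fits too, at 18.7%, 27.5% and 17.2% without a WT testis and 22.1%, 25.3% and 26.4% without an AROM+ testis. The members' median was −0.05 without WT replicate 2. The count of rises stayed between 2 and 3.

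**Figure D1:**
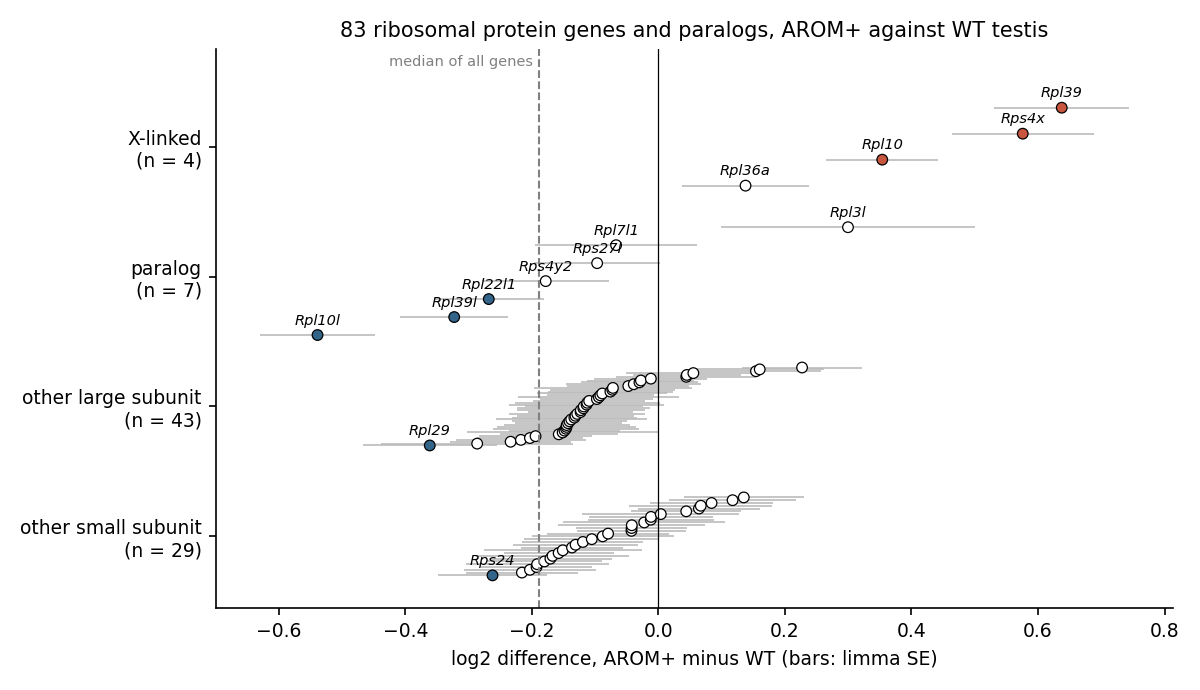
Log2 difference (AROM+ minus WT, n = 3 arrays each, horizontal axis) of each of the 83 genes, in rows for X-linked genes, paralogs and the other large- and small-subunit genes; bars are limma standard errors, filled points passed the test (red higher, blue lower), and the dashed line is the median of all names tested. The X-linked genes sit to the right of 0, from 0.14 to 0.64, while Rpl10l lies farthest left at −0.54.

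Within an array the ribosomal protein genes as a group stood far above the typical probe, with a median processed intensity of 60231 and no saturated spot. The median over the 83 genes was 3.80, 3.88 and 3.82 in the WT testes and 3.69, 3.68 and 3.84 in the AROM+ testes. The third AROM+ testis thus lay within the WT range and the other two below it. Markers of some germ cell stages and of some interstitial cell types differed between the same testes. Over all names, 14.5% were called higher and 31.4% lower. All 9 round spermatid markers and 7 of 10 spermatocyte markers were lower (median differences −0.48 and −0.36). The summed linear level of the round spermatid list was 76.9 to 82.3 in WT and 56.2 to 61.1 in AROM+ testes, and that of the spermatocyte list 91.7 to 94.4 and 68.8 to 76.7. Elongating spermatid markers were lower in 6 of 10 cases (254 to 338 against 212 to 223). Of the 12 macrophage markers 11 were higher and 1, Csf1r, was lower, with summed levels of 15.7 to 21.6 in WT and 41.3 to 73.0 in AROM+ testes. All 6 fibroblast and matrix markers were higher (13.6 to 18.7 against 26.5 to 37.6). Of 8 spermatogonial markers 2 were higher and 1 lower (median difference 0.01). Sertoli markers had 3 of 11 higher and 0 lower, and Leydig markers 3 of 7 higher and 0 lower. Peritubular markers had 0 of 5 higher and 1 lower. Lymphocyte markers had 3 of 8 higher and 1 lower, and endothelial markers 6 of 7 higher and 1 lower. In whole testis, fewer cells of a type and less RNA per cell cannot be told apart, and the part of these marker shifts in the ribosomal protein values was not tested.

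Of the 4 X-linked members, Rpl39, Rps4x and Rpl10 rose and Rpl36a was not called at its brightest probe. Their median difference was 0.46. Among all 682 X-linked genes tested, 32.4% were called higher and 20.7% lower, with a median of 0.18, while 16556 autosomal genes had 19.4% higher, 30.6% lower and a median of −0.14. Rpl39, a small protein of the exit tunnel, read 2.43, 2.54 and 2.27 in WT and 3.09, 2.94 and 3.13 in AROM+ testes. The groups did not overlap, and the difference was 0.64 ± 0.107 (adjusted p = 0.006 from limma). Its other probes differed by 0.58 ± 0.0965 and 1.33 ± 0.213, the second from a dim probe.

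Rps4x encodes the X-linked form of the small-subunit protein eS4. It read 2.54, 2.82 and 2.57 in WT and 3.26, 3.10 and 3.28 in AROM+ testes, again without overlap. The difference was 0.58 ± 0.112 (adjusted p = 0.009 from limma), and its other probe gave 0.86 ± 0.138. As both Rps4x probes are placed off the X chromosome in the files, signal from copies elsewhere cannot be separated from that of the X-linked gene. The brightest probes of Rpl3, Rpl28, Rpl36, Rps27 and Rps29 are likewise placed on another chromosome than the gene, which bears on the pairs of Rpl3 and Rps27.

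Rpl10 joins the large subunit late in its assembly, near the site where peptide bonds are made. It measured 3.27, 3.35 and 3.22 in WT testes and 3.56, 3.63 and 3.71 in AROM+ testes, so each AROM+ testis exceeded each WT testis. The difference was 0.35 ± 0.089 (adjusted p = 0.019 from limma). Its 2 other probes also passed, at 0.48 ± 0.0867 and 0.44 ± 0.115. They share 44 and 35 bases with probes of another name, and the brightest probe shares 23. Signal from near-identical copies can thus add to each of them. Leaving out WT replicate 1 (adjusted p = 0.067) or WT replicate 3 (adjusted p = 0.069) ended the call at the brightest probe, with differences of 0.35 and 0.32. It was also lost with spike-in scaling, where the difference was 0.30, and was kept with quantile normalization, where it was 0.58.

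Rpl36a gave different answers from different probes. The brightest probe, which shares 28 bases with a probe of another name, read 2.17, 2.37 and 2.39 in WT and 2.38, 2.43 and 2.54 in AROM+ testes. The groups overlapped, with a difference of 0.14 ± 0.101 (adjusted p = 0.293 from limma). A second probe, which shares no such run, read 1.17, 1.31 and 1.21 in WT and 2.11, 1.91 and 2.09 in AROM+ testes. Here the groups lay far apart, at 0.81 ± 0.0993 (adjusted p = 0.004 from limma over 42638 probes), and the third probe gave 0.75 ± 0.122. With probes of a gene averaged in place of the brightest, 8 members were called higher, Rpl36a among them. The Rpl36a average counts both overlapping probes.

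Among the 7 paralogs, Rpl10l, Rpl39l and Rpl22l1 fell, Rps4y2, Rps27l, Rpl7l1 and Rpl3l did not pass the test, and the median difference was −0.18. The 3 falls are 42.9% of 7 genes, beside 31.4% of all names and 30.6% of autosomal genes. Rpl10l, the intronless autosomal copy of Rpl10, showed the largest fall of the 83 genes. It read 3.88, 3.88 and 3.76 in WT and 3.21, 3.33 and 3.36 in AROM+ testes, which leaves a clear gap between the groups. The difference was −0.54 ± 0.091 (adjusted p = 0.007 from limma). The second Rpl10l probe, which shares 23 bases with a probe of another name, gave −0.34 ± 0.103, also called. With quantile normalization the Rpl10l difference was −0.32 and still called. Rpl39l, the autosomal copy of Rpl39, read 3.83, 3.72 and 3.85 in WT and 3.47, 3.45 and 3.51 in AROM+ testes. All AROM+ values lay below all WT values, with a difference of −0.32 ± 0.085 (adjusted p = 0.022 from limma). Leaving out 1 testis ended this call in 4 cases: WT replicates 1 and 3 (adjusted p = 0.080 and 0.078) and AROM+ replicates 1 and 2 (adjusted p = 0.053 and 0.062). With quantile normalization the Rpl39l difference was −0.11 (adjusted p = 0.355).

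Rps4y2 read 2.63, 2.53 and 2.54 in WT and 2.40, 2.25 and 2.52 in AROM+ testes. The highest AROM+ value lay just under the lowest WT value, and the difference of −0.18 ± 0.10 did not pass (adjusted p = 0.182 from limma); it was 0.04 with quantile normalization. Rpl22l1, a paralog of the large-subunit gene Rpl22, read 2.48, 2.43 and 2.60 in WT and 2.21, 2.25 and 2.24 in AROM+ testes. Its difference was −0.27 ± 0.087 (adjusted p = 0.043 from limma). Its only probe shares 54 bases with a probe of another name, and the brightest Rpl22 probe shares 43. Signal from near-identical copies can thus add to both. The call was lost whichever of the 6 testes was left out (adjusted p = 0.052 to 0.139), and with quantile normalization the difference was −0.06. Rpl3l, the form of Rpl3 known from heart and skeletal muscle, was the dimmest member and gave 0.30 ± 0.200 (adjusted p = 0.252). Rps27l and Rpl7l1 differed by −0.10 ± 0.10 and −0.07 ± 0.128.

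**Figure D2:**
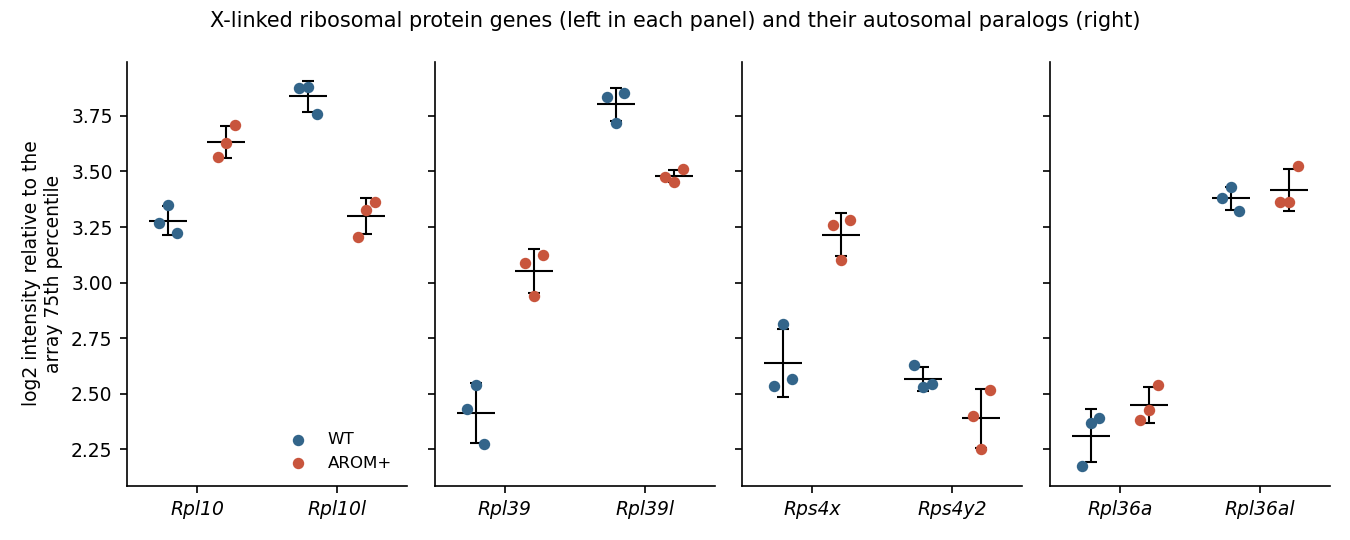
Log2 intensity with the 75th percentile of the array set to 0 (vertical axis) in each of 3 WT (blue) and 3 AROM+ (red) testes for 4 X-linked genes and their autosomal paralogs; horizontal marks are means, bars are SD (n = 3), and levels should be compared only within a gene. Rpl10, Rpl39 and Rps4x are higher in every AROM+ testis than in any WT testis, whereas Rpl10l and Rpl39l are lower in every AROM+ testis.

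The balance between an X-linked gene and its copy was followed as the log2 ratio of the copy to its parent within each array, where a scaling constant of the array cancels. For Rpl10l over Rpl10 this ratio was 0.61, 0.53 and 0.54 in WT and −0.36, −0.30 and −0.34 in AROM+ testes. The mean moved from 0.56 ± 0.04 (SD, n = 3) to −0.33 ± 0.03 (SD, n = 3), a change of −0.89 that divides the ratio by 1.86. As the ratio sets probes of unequal response side by side, its change between groups can be read but its sign in a group cannot. For Rpl39l over Rpl39 the ratio was 1.40, 1.18 and 1.58 in WT and 0.39, 0.51 and 0.38 in AROM+ testes, a change of −0.96. Rps4y2 over Rps4x gave 0.09, −0.28 and −0.02 in WT and −0.86, −0.85 and −0.77 in AROM+ testes, a change of −0.75. The groups did not overlap in any of these 3 ratios.

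An exact two-sided permutation test over the 6 arrays gave p = 0.1 for each of those 3 pairs, the smallest p that 3 against 3 allows, so no pair could pass 0.05. Adjusted over the 8 pairs compared, each was 0.267. The pair Rpl36al (which the naming rule does not take) over Rpl36a changed by −0.10 (exact permutation p = 0.4) at the brightest probes. It changed by −0.53 when each gene's probes, among them the overlapping Rpl36a probes, were averaged. Rpl22l1 over Rpl22, whose parent is autosomal, changed by −0.31 (exact permutation p = 0.2) with overlapping groups. With each gene's probes averaged it changed by −0.75, and the groups did not overlap (exact permutation p = 0.1); with quantile normalization it changed by −0.33 (exact permutation p = 0.1). For the autosomal pairs Rps27l over Rps27, Rpl7l1 over Rpl7 and Rpl3l over Rpl3 the changes were 0.07, 0.06 and 0.14, each with overlapping groups or a p of 0.2 or more by the exact permutation test. With quantile normalization Rps27l over Rps27 changed by 0.08 (exact permutation p = 0.1). Its groups were then barely apart, with −0.1663 as the highest WT ratio and −0.1661 as the lowest AROM+ ratio.

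The same ratio was taken for 7 other X-linked genes with a testis-expressed copy on another chromosome. It was lower in every AROM+ testis than in any WT testis in all 7, each with an exact permutation p = 0.1 (0.1 adjusted over the 7). Among single genes, 41.1% of all names had AROM+ values wholly below the WT values, and the share over other gene pairs was not computed. For Cstf2t over Cstf2 the gap was narrow, with −1.063 as the lowest WT ratio and −1.065 as the highest AROM+ ratio. With normexp background correction the groups overlapped for that pair, which then changed by −0.12 (exact permutation p = 0.8). Changes ranged from −0.27 for Cstf2t over Cstf2, which act in messenger RNA 3′ end formation, to −1.58 for Pdha2 over Pdha1, subunits of pyruvate dehydrogenase. Of the X-linked genes 6 were called higher, beside 32.4% of all 682 X-linked genes tested. Among the 6 were Pgk1, a glycolytic enzyme (0.65 ± 0.0961), and Utp14a, a factor of ribosome assembly (0.69 ± 0.134). Of the copies 5 were called lower, including Pgk2 (−0.43 ± 0.0969) and Utp14b (−0.42 ± 0.0943), beside 31.4% of all names. Changes of −0.89, −0.96 and −0.75 for Rpl10l, Rpl39l and Rps4y2 over their parents lay inside this range. That of Rpl36al over Rpl36a, −0.10 at the brightest probes, lay outside it.

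**Figure D3:**
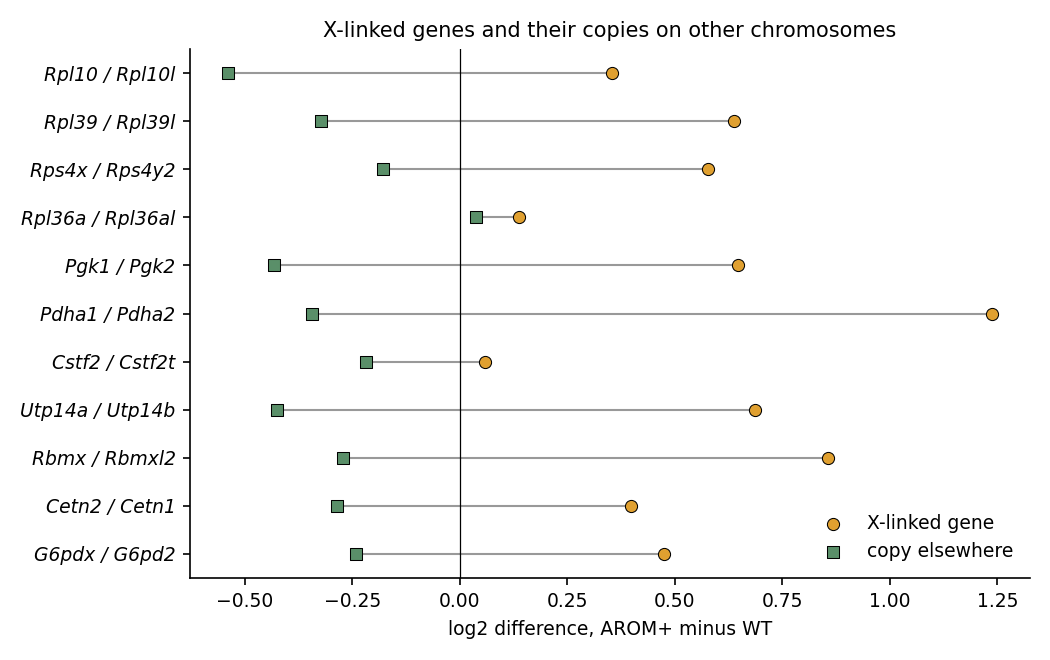
Log2 difference, AROM+ minus WT (horizontal axis, n = 3 arrays each), of 11 X-linked genes (circles) and of their copies on other chromosomes (squares); a line joins the 2 genes of a pair. Circles sit to the right of the squares in every pair, and the gap, copy minus X-linked gene, runs from −0.10 for Rpl36al to −1.58 for Pdha2.

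Apart from the X-linked genes and the paralogs, 72 autosomal ribosomal protein genes remained, of which 0 rose by limma's test and 2 fell (Rpl29 and Rps24). The falls are 2.78% of the 72, beside 30.6% lower and 19.4% higher among all autosomal genes tested. An unadjusted limma p under 0.05 was found for 6 of the 72, beside 15967 of all 28925 names. The median difference of the 72 genes was −0.11. Rpl29, a large-subunit protein that also binds heparin, read 4.28, 4.32 and 4.03 in WT and 3.87, 3.79 and 3.89 in AROM+ testes. The difference was −0.36 ± 0.106 (adjusted p = 0.031 from limma), and its other probe gave −0.31 ± 0.104, also called. These probes share 30 and 50 bases with probes of another name. The Rpl29 call held without WT replicate 3 (adjusted p = 0.033) and was lost when any other testis was left out (adjusted p = 0.054 to 0.102). Rps24, a small-subunit protein mutated in some patients with Diamond-Blackfan anaemia, read 4.21, 4.27 and 4.22 in WT and 3.90, 3.96 and 4.05 in AROM+ testes. Its groups did not overlap, and the difference was −0.26 ± 0.085 (adjusted p = 0.043 from limma). Its other probes gave −0.09 ± 0.0889, −0.18 ± 0.0884 and −0.24 ± 0.0933, and none was called (adjusted p = 0.076 to 0.459 from limma over probes). The Rps24 call at the brightest probe held without AROM+ replicate 3 (adjusted p = 0.047). It was lost when any other testis was left out (adjusted p = 0.096 to 0.109). With quantile normalization Rpl29 and Rps24 differed by −0.13 and −0.01, and neither was called.

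By subunit, 2 of 51 large-subunit genes rose and 4 fell (median −0.11), and 1 of 32 small-subunit genes rose and 1 fell (median −0.09). Of all names 14.5% rose and 31.4% fell. The stalk proteins Rplp0, Rplp1 and Rplp2, which recruit the translation factors, gave −0.08 ± 0.099, −0.04 ± 0.107 and −0.09 ± 0.085, and none passed. Rpsa, the laminin receptor precursor that sits in the small subunit, gave −0.04 ± 0.087. Rps6, the substrate of S6 kinase, gave −0.08 ± 0.097 at its brightest probe. Among the members that bind Mdm2 and so signal ribosome stress to p53, Rpl11 gave −0.14 ± 0.099 and Rpl5 gave 0.23 ± 0.094 (adjusted p = 0.264 and 0.087 from limma). Rpl5 read 3.31, 3.26 and 3.28 in WT and 3.57, 3.38 and 3.59 in AROM+ testes, so its groups did not overlap although the test was not passed. Rpl3 and Rpl10a gave 0.16 ± 0.101 and 0.15 ± 0.103, and these 2 genes and Rpl5 were called higher with quantile normalization. The largest falls that did not pass were those of Rpl13 (−0.29 ± 0.152, but −0.14 without WT replicate 2 and −0.06 with quantile normalization), Rpl32 (−0.23 ± 0.096) and Rpl21 (−0.22 ± 0.103).

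Different probes of a gene did not always give the same difference. For 56 members with 2 or more kept probes, none had probes called in opposite directions. In 14 genes, however, the brightest probe was not called while another was, higher in 10 and lower in 4. Among the falls was an Rps27a probe that read 1.72, 1.78 and 1.67 in WT and 1.05, 0.97 and 0.88 in AROM+ testes. Its difference was −0.76 ± 0.093 (adjusted p = 0.004 from limma over probes), beside 0.04 ± 0.087 at the brightest Rps27a probe. It lies on another transcript record than the brightest, so the comparison by distance below leaves it out. Over all 184 kept probes 20 were called higher and 11 lower, beside 14% and 30.4% of all 42638 kept probes (44.4% in either direction). Probes were then set apart by their position on the transcript, a division made after the values had been seen. Of 22 probes of 18 genes that lie at least 200 bases downstream of the brightest probe on the same transcript record, 10 were higher and 3 lower, with a median of 0.13. For 60 probes of 38 genes nearer than that or upstream, 6 were higher and 2 lower, with a median of −0.09. Those 6 all belong to the X-linked Rpl10, Rpl39 and Rpl36a, and the 10 farther ones to autosomal genes. Distance and X linkage are thus mixed in this comparison. Of the 10, 2 are Rpl13a probes that start at bases 753 and 758 of the record.

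Rpl22, a large-subunit protein, is an example. Its brightest probe read 3.22, 3.34 and 3.12 in WT and 3.26, 3.14 and 3.42 in AROM+ testes, which overlap, and differed by 0.04 ± 0.111. A probe 1497 bases downstream read −1.22, −1.06 and −1.15 in WT and −0.38, −0.17 and −0.12 in AROM+ testes, with a wide gap between the groups. That difference was 0.92 ± 0.108 (adjusted p = 0.004 from limma over probes). Rps6 gave −0.08 at its brightest probe and 0.84 ± 0.101 at a probe 685 bases downstream. The downstream probe of Rps6 read −1.17, −0.98 and −1.05 in WT and −0.14, −0.33 and −0.20 in AROM+ testes. Rpl15, a large-subunit protein, gave −0.01 at the brightest probe and 0.93 ± 0.0949 at one 1069 bases downstream. Rpl14 and Rpl23 gave 0.92 ± 0.105 and 0.98 ± 0.173 at probes 202 and 562 bases downstream. Not all downstream probes rose: one of Rpl6, 335 bases on, gave −0.52. The 10 risen downstream probes were dimmer than the brightest probes of the same 9 genes, with WT means from −5.18 to 1.40 against 3.23 to 4.32, and the part of signal strength in the difference was not tested.

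**Figure D4:**
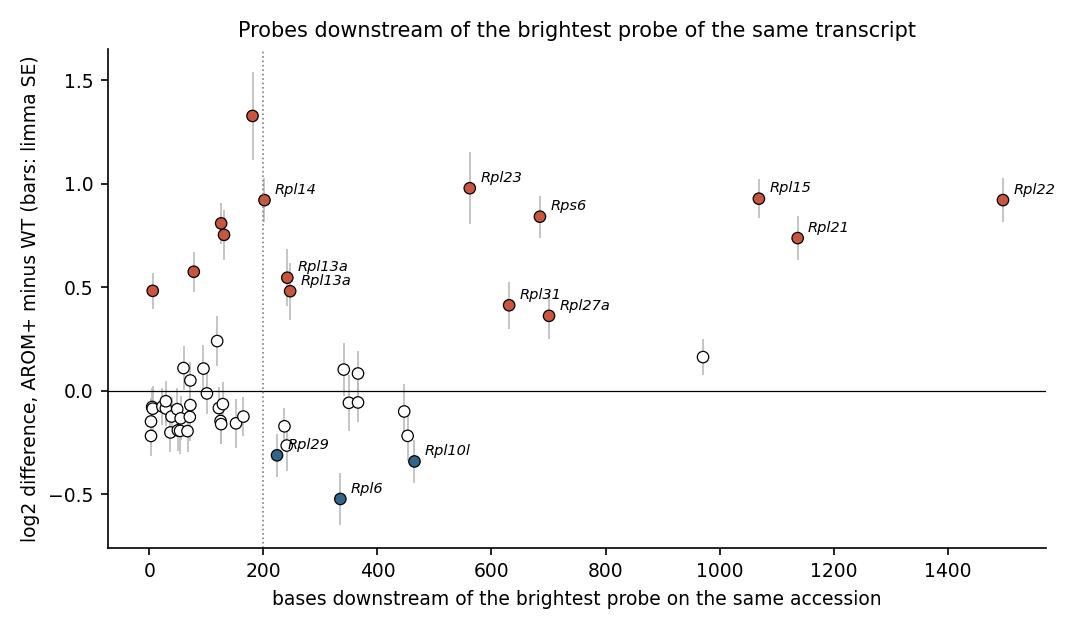
Log2 difference, AROM+ minus WT (vertical axis, n = 3 arrays each, bars are limma standard errors), of probes that lie downstream of the brightest probe on the same transcript record, against the distance in bases (horizontal axis); red and blue points were called higher and lower, and the dotted line marks 200 bases. Risen probes reach 1497 bases (Rpl22, 0.92), while called falls lie at Rpl29, Rpl6 and Rpl10l.

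Messenger RNAs of ribosomal proteins often start with a C followed by a run of pyrimidines, the terminal oligopyrimidine tract through which mTOR signalling adjusts their translation. Starts from RefSeq (GRCm38.p6) were listed for 62 of the 83 genes. On the gene's strand, which reads as the RNA does, a C at the listed start followed by 4 bases that are each C or T was found in 13 of these 62 (21.0%). It was found in 3.01% of 27025 genes with a listed start. A C followed by 7 such bases within 30 bases of the start, a wider search that overlaps the first, was found in 38 of 62 (61.3%) and in 21.6% of all genes. The windows below, from 20 bases before the start to 10 after it on the gene's strand, show the tract in capitals for 3 genes whose downstream probes rose and for a stalk protein.
Rps6 at chr4:86857358-86857387: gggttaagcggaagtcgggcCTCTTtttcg
Rpl14 at chr9:120571497-120571526: cggcagggcgggccctctctCTTCTcgctg
Rpl15 at chr14:18270977-18271006: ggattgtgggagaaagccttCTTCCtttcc
Rplp2 at chr7:141447631-141447660: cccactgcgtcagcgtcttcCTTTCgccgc
A match describes the letters of the window. Rpl10, Rpl10l, Rpl39, Rpl39l, Rps4x and Rpl36a did not hold the short form at their listed start.

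Other genes of the translation machinery were given by 5 lists that together held 186 tested genes, of which 17 were higher and 37 lower. These are 9.14% and 19.9% of the list genes, beside 14.5% and 31.4% of all names. In a list of 21 ribosome-associated genes and other genes with such tracts, 0 were higher and 5 lower by limma (median −0.19), among them Eef1g, a subunit of elongation factor 1 (−0.41 ± 0.105), and Eif4b, a helper of the RNA helicase in initiation (−0.32 ± 0.0929). The list of initiation and elongation factors had 1 of 35 higher, Eif5b, which joins the subunits (0.90 ± 0.135), and 10 lower, led by the release factor Etf1 (−0.49 ± 0.111) and Eif5 (−0.42 ± 0.0868). Of 30 ribosome biogenesis genes 2 were higher and 5 lower (median 0.00). Dkc1, the X-linked pseudouridine synthase of ribosomal RNA, was 0.51 ± 0.106 higher, as was Pes1 (0.46 ± 0.132), and Nmd3, the export adaptor of the large subunit, fell by 0.38 on the log2 scale.

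Of 24 genes of mTOR, S6 kinase and cap-binding control, 7 were higher and 4 lower (median 0.20), beside 14.5% and 31.4% of all names. Differences in this list ran from −0.81 to 2.76. The genes that rose included Akt1 (0.71 ± 0.096), which signals to mTOR, and Tsc2 and Deptor, inhibitors of the pathway (0.43 ± 0.0959 and 1.07 ± 0.185). Mtor itself fell (−0.32 ± 0.0852), as did Larp1, which binds the pyrimidine tract (−0.42 ± 0.0813), and the cap-binding protein Eif4e (−0.81 ± 0.0982). Ribosomal proteins of mitochondria, which are a separate family encoded by nuclear genes, were higher in 7 of 76 cases and lower in 13, with a median of −0.12. Mrpl14 rose (0.64 ± 0.134) and Mrpl38 fell (−0.44 ± 0.101). Mrpl37 had the lowest difference of that list, −1.35 ± 0.630, which did not pass (adjusted p = 0.119 from limma): it read 2.31, 2.25 and 2.20 in WT and −0.72, 1.74 and 1.70 in AROM+ testes, the first of them far below the rest. With quantile normalization, 33 of the 186 genes were higher and 3 lower, which is 17.7% and 1.61%, beside 16.2% and 21.4% of all names in that setting. The counts without a single testis ranged from 7 to 16 higher and from 8 to 23 lower, the fewest rises without WT replicate 3 and the fewest falls without WT replicate 1.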

How the data were processed

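Per the file headers, the deposited values are one-colour Agilent spot intensities on an mm9 design, with the processed signal already background-corrected by Feature Extraction 10.7.3.1 (10.10 per the submitters' processing notes). A log2 table deposited by the authors equals log2 of that signal minus 1 constant per array, to within 0.001 for all 55249 probes with 1 spot; over all non-control spots the slope was 1.00 and genes were not centred. The column medians of WT arrays were −3.12, −3.11 and −3.09, and those of AROM+ arrays −3.05, −3.09 and −3.02.

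Each array had 62976 spots. The 3671 control spots and 123 to 192 outlier-flagged spots per array were left out, and spots of 1 probe were averaged into 55681 probes. From log2 of the processed signal the 75th percentile of the array was subtracted. A probe was kept (42638) if every array of a group had it well above background, and the brightest probe stood for each listed name (28925 names, of which 19193 are in RefSeq, GRCm38.p6). Of the 186 member probes, 184 were kept, and 172 matched RefSeq by accession.

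Groups, taken from the labels, were compared by lmFit and eBayes of limma 3.58.1 (R 4.3.3, Benjamini-Hochberg, threshold 0.05), tested on simulated data. The number of arrays limits the precision. Named genes were the X-linked genes, the paralogs and their parents, the stalk, fixed members such as Rps6 and Rpl5, and the 8 largest rises and falls. The members, lists and rules were chosen with earlier results of these data known. Alternatives were normexp (offset 50), quantile normalization, 3 other scalings, the deposited table, 2 other filters, averaging a gene's probes, RefSeq names only, a replicate block, an eBayes trend, array weights and leaving out each array.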

Additional observations from a re-analysis of the deposited data

How the results depend on the processing

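The calls of Rpl39, Rps4x and Rpl10l kept their direction and stayed past the threshold under all 19 alternatives. Rpl10 did so under 15 (lost with spike-in scaling, the replicate block and without WT replicate 1 or 3), Rpl39l under 12, Rpl29 under 11, Rpl22l1 under 8 and Rps24 under 7. Over 29 named genes, 500 of 551 values kept their side of the threshold, 42 lost a call and 9 gained one. No value that was called, in the main fit or in the alternative, changed direction. Values uncalled in both could change sign, as Rps4y2 did with quantile normalization (0.04). Main counts were 3 members higher and 5 lower. Higher counts moved to 13 with quantile normalization and 8 when a gene's probes were averaged, and ranged from 2 to 3 with 1 testis left out. Lower counts moved to 1 with quantile normalization, 1 with spike-in scaling, 3 with the deposited log2 table, 3 with no filter on dim probes and 10 with an eBayes trend, and ranged from 1 to 3 with 1 testis left out. The median difference of the members, −0.11, became 0.11 with quantile normalization and ranged from −0.14 to −0.05 with 1 testis left out, nearest to 0 without WT replicate 2; quantile normalization also moved the median of all names from −0.19 to −0.09. The change of Rpl10l minus that of Rpl10 was −0.81 with normexp. When a gene's probes were averaged, it was −1.17 for Rpl39l minus Rpl39, −0.90 for Rps4y2 minus Rps4x, −0.75 for Rpl22l1 minus Rpl22 (−0.31 before) and −0.53 for Rpl36al minus Rpl36a. The 186 genes of the 5 translation lists went from 17 higher and 37 lower to 33 higher and 3 lower with quantile normalization. With 1 testis left out the lists had 7 to 16 higher and 8 to 23 lower. Apart from leaving out testes, which leaves fewer samples, the cause of these shifts was not tested. Signal over background limits Rpl3l, the dimmest member.

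With the replicate number as a block, 2 members were higher and 1 lower. Same-numbered testes did not deviate together: correlations of their deviations over 28919 genes were 0.05, −0.17 and 0.05, and 0 of 6 arrays correlated best with their own number, so the numbers were not used as pairs.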
